A study of Mus musculus with 198 samples.

Results

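Lungs of 11 control C57BL/6 mice, 6 female and 5 male, were set against 8 other tissues of the same animals by RNA-seq: heart, kidney, liver, spleen, bone marrow, gonadal fat, subscapular fat (a subcutaneous depot) and skin. They are 11 of the 12 control lungs, and 11 of the 198 libraries of the series. A lung gene was defined as a gene with significantly more RNA in lung than in each of the 8 other tissues, and 767 of the 17229 genes tested met that definition. The series holds 22 mice, of which 10 received an antibody against PAPP-A for 17 weeks and 12 received the control for the same time. PAPP-A is a secreted protease that cleaves binding proteins of the insulin-like growth factors (IGF). The anti-PAPP-A group held 5 mice of each sex. The labels give no age and no genetic change, and RNA came from whole tissue, so every value is an average over all cells in the piece taken. Fewer cells of a type and less RNA per cell cannot be told apart in such samples.

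The lung exchanges gas across alveoli lined by 2 kinds of epithelial cell. Thin alveolar type 1 (AT1) cells cover most of the surface and lie against a dense net of capillaries, and cuboidal alveolar type 2 (AT2) cells make surfactant, the film of lipid and protein that lowers surface tension, and act as progenitors of AT1 cells. The conducting airways are lined by club cells, which secrete protein and metabolise inhaled compounds, and by ciliated cells, which move mucus. All of these epithelial cells descend from foregut cells that express Nkx2-1, and the organ's mesenchyme is marked by Tbx4 and Foxf1.

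Expression is given in CPM, counts scaled to the size of the library, with 9 very abundant features left out, mitochondrial ribosomal RNAs among them. The control lungs held 5700469 to 11042551 counts in total and 1008482 to 2744857 outside those features, against 201092 to 4694597 outside them in the 87 control libraries of the other tissues. A further 2 libraries stood apart from their labels and were left out. The library labelled lung of mouse 68 had 3.93 summed CPM of the 4 surfactant protein genes, against 6288 to 19237 in the other 11 control lungs, and its fat cell (adipocyte) genes summed to 13046 CPM, against 202 to 4430. The library labelled heart of mouse 22 had 2804 CPM of Myh6, the cardiac myosin heavy chain, against 19007 to 36628 CPM in the 10 hearts used, and 68.1 CPM of the keratin Krt5, against at most 0.734 CPM. With both libraries kept there were 654 lung genes, of which 645 were among the 767.

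Surfactant and tight junction genes are textbook targets of Nkx2-1 and of forkhead (FOX) factors. Control by these factors was not tested. Promoters of some of the genes with the largest differences are shown first. Each is the strand read 5′ to 3′ from 250 bases before to 50 bases after the start of the gene, from RefSeq annotation of GRCm38.p6. Capitals mark CTCAAG, the core bound by Nkx2-1, and the forkhead letters TGTTTGC, searched on both strands, so that the forkhead letters read GCAAACA where they lie on the other strand. Sftpb encodes surfactant protein B (chr6:72304360-72304659, plus strand), Sftpa1 encodes surfactant protein A (chr14:41131538-41131837, plus strand) and Cldn18 encodes a claudin of alveolar tight junctions (chr9:99717218-99717517, minus strand, the first of its 2 start sites).

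Sftpb: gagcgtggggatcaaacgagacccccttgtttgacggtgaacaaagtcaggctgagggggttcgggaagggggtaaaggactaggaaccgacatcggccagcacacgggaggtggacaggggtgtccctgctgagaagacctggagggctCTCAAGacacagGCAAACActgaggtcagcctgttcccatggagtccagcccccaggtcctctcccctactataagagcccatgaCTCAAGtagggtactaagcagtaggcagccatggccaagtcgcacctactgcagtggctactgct
Sftpa1: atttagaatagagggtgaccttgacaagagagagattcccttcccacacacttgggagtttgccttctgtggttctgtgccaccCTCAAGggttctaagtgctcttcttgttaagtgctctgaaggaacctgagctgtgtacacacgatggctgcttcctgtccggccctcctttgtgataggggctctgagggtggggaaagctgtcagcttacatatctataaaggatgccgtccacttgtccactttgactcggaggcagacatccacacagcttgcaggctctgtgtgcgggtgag
Cldn18: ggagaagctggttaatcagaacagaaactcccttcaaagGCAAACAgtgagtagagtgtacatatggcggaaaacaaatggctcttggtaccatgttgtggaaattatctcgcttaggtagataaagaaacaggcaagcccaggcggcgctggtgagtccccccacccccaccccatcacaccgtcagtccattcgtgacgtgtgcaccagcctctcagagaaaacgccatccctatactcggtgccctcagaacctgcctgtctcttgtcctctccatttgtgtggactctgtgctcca

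The Sftpb window held 2 matches to CTCAAG and 1 to TGTTTGC, the Sftpa1 window held 1 to CTCAAG and none to the forkhead letters, and the Cldn18 window held 1 to TGTTTGC. The window of Nkx2-1 itself held none of them. A match is a description of letters and not a site. CTCAAG occurred in 12.9% of the 696 windows of lung genes, in 14.3% of the 14186 windows of genes tested and in 15.9% of all 32851 windows. Among the 69 windows of lung genes with a smallest log2 fold change of at least 3 it occurred in 14, or 20.3%. TGTTTGC occurred in 8.7% of those 69 windows, in 5.32% of windows of lung genes and in 4.13% of windows of genes tested, and the related letters TGTTTAC in 7.25%, 2.87% and 2.89%. A window could be matched to 68.6% of the 767 lung genes. Sftpc, Sftpd, Scgb1a1 and Foxj1 had no entry.

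Each tissue was compared with lung in the same mice by edgeR's quasi-likelihood test with the mouse as a block, and a gene was called at an adjusted p under 0.05. The 8 comparisons share the same lungs and are not independent of each other. Against heart (10 pairs) 5064 genes, 29.4% of those tested, were higher in lung and 4291 (24.9%) were lower. Against kidney 5472 (31.8%) were higher and 4516 (26.2%) lower, and against liver 6492 (37.7%) were higher and 4578 (26.6%) lower. Against spleen 5896 (34.2%) were higher and 5566 (32.3%) lower, and against bone marrow 6941 (40.3%) were higher and 6238 (36.2%) lower. Against gonadal fat 4465 (25.9%) were higher and 4355 (25.3%) lower, against subscapular fat 3658 (21.2%) were higher and 3482 (20.2%) lower, and against skin 5912 (34.3%) were higher and 4668 (27.1%) lower.

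The 767 genes higher in lung than in all 8 tissues were 4.45% of the genes tested, and 46 genes, 0.267%, were lower than in all 8. The smallest of a gene's 8 log2 fold changes says how far lung stood above its closest competitor. Its median was 1.02 over the lung genes and -1.2 over all genes tested. At least 1 on the log2 scale was reached by 394 lung genes (51.4%), at least 3 by 101 (13.2%) and at least 5 by 36 (4.69%). The closest tissue was heart for 171 lung genes, kidney for 132, gonadal fat for 126 and skin for 102, while subscapular fat was closest for 27. Lung was the highest tissue in every mouse for 414 of the 767, which were chosen from these same libraries. These 414 were 2.4% of all genes tested, and for mouse 22 the heart was not among the tissues compared. Lung genes held 15.1% of all CPM in lung, and 710 of them (92.6%) were protein coding, against 81.3% of all genes tested. Just inside the limit lay Ctnnb1, Btbd7 and Dapk2, with largest adjusted p of 0.04911, 0.04983 and 0.04999 (edgeR), and just outside it Rnf32, Ppp1r13b and Wnt11, with 0.05015, 0.0504 and 0.05052.

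The surfactant proteins gave the clearest separation: all 4 genes of the list were lung genes, with a median smallest log2 fold change of 9.83. Sftpc (ENSMUSG00000022097.3, mm10 chr14:70520949-70524081, minus strand) encodes surfactant protein C, which is made by AT2 cells. It had 2881 CPM in the lowest, 4223 in the median and 10455 in the highest lung, against 0, 1.28 and 14.9 CPM in skin, its closest tissue. The groups were far apart, and Sftpc was higher in lung in 11 of 11 mice (log2 fold change 11.15 ± 0.41 SE, edgeR adjusted p = 1.45e-12). Sftpb (mm10 chr6:72304610-72314371, plus strand) had 1451, 1934 and 3011 CPM in lung, against 0, 1.5 and 4.39 CPM in bone marrow (log2 fold change 10.27 ± 0.27 SE, edgeR adjusted p = 1.49e-15). The collectins Sftpa1 and Sftpd, secreted lectins that bind microbes, lie close together on chromosome 14. Sftpa1 had 1336, 2086 and 4756 CPM in lung, against 0, 3.27 and 5.95 CPM in liver, and Sftpd had 283, 372 and 1014 CPM in lung, against 0, 2.35 and 8.16 CPM in liver. Their log2 fold changes over liver were 9.39 ± 0.27 and 7.13 ± 0.27 (SE, edgeR adjusted p = 1.52e-15 and 3.13e-14).

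**Figure D1:**
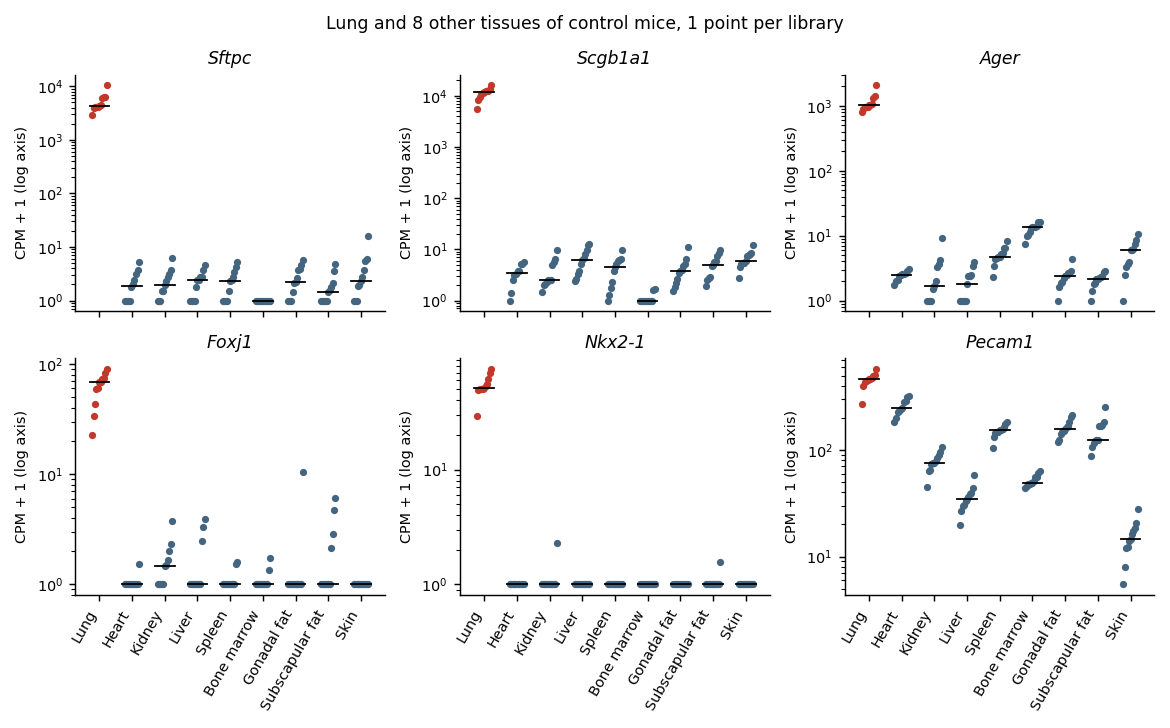
Expression of 6 genes in each control library (CPM + 1, log axis), with lung at the left and the 8 other tissues after it; points are libraries and bars are medians over 11 mice, 10 for heart. Sftpc, Scgb1a1, Ager, Foxj1 and Nkx2-1 in lung lie above every library of the other tissues, whereas Pecam1 in lung overlaps heart.

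Of the 20 AT2 genes, 15 were lung genes, with a median smallest log2 fold change of 2.67 over the list. Lamp3, a protein of the lamellar bodies that store surfactant, had 206, 368 and 1140 CPM in the lowest, median and highest lung, against at most 2.07 CPM in spleen (log2 fold change 8.60 ± 0.22 SE, edgeR adjusted p = 7.37e-15). Slc34a2, a phosphate transporter, had 1293, 1728 and 2913 CPM in lung, against 5.95, 16.7 and 91.0 CPM in liver. The chemokine gene Cxcl15 had 458, 820 and 1699 CPM in lung, against 0, 2.89 and 44.2 CPM in subscapular fat. For the other 5 AT2 genes kidney or liver was at or above the level of lung. Abca3, the transporter that loads surfactant lipid into lamellar bodies, had 444 to 694 CPM in lung with a median of 531, and a median of 589 CPM with a maximum of 696 in kidney (log2 fold change -0.08 ± 0.11 SE, edgeR adjusted p = 0.569). The aspartic protease Napsa, which processes surfactant protein B, was lower in lung than in kidney in 10 of 11 mice, with medians of 131 CPM in lung and 865 CPM in kidney (log2 fold change -2.42 ± 0.31 SE, edgeR adjusted p = 4.37e-06). The calcium-binding protein S100g had medians of 21.7 CPM in lung and 229 CPM in kidney.

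Of 18 genes of surfactant lipid synthesis and turnover, 5 were lung genes, and the median smallest log2 fold change of the list was -1.51, near the -1.2 of all genes tested. Lpcat1, which remodels phosphatidylcholine in AT2 cells, had 281, 332 and 431 CPM in lung, against 52.8, 71.9 and 86.2 CPM in spleen, and did not overlap it. Adgrf5, a receptor that limits the surfactant pool and is also made by endothelium, had 1171, 1535 and 1875 CPM in lung, against 342, 430 and 584 CPM in heart. The desaturase Scd2 and the elongase Elovl1 exceeded their closest tissues by 1.04 and 0.74 on the log2 scale (edgeR adjusted p = 0.00534 and 0.00245). Both calls were lost with the 2 doubtful libraries kept (0.83 and 0.57), that of Scd2 also in females alone (1.23) and that of Elovl1 in males alone (0.45).

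Of the 18 AT1 genes 14 were lung genes, with a median smallest log2 fold change of 1.81. Cldn18 (mm10 chr9:99689461-99717267, minus strand) had 369, 441 and 1038 CPM in lung, against at most 2.53 CPM in kidney and 0 in every heart and bone marrow library. Set against the level of 3 counts over the group, Cldn18 was at least 2351-fold higher in lung than in heart. Ager, the receptor for advanced glycation end products (mm10 chr17:34597862-34600936, plus strand), had 809, 1014 and 2072 CPM in lung, against 6.37, 12.4 and 15.4 CPM in bone marrow. The lungs stood above every bone marrow library, and the log2 fold change was 6.41 ± 0.17 (SE, edgeR adjusted p = 1.26e-15). The anchoring protein Akap5 and the rhotekin Rtkn2 exceeded spleen and bone marrow by 5.09 ± 0.11 and 4.53 ± 0.12 on the log2 scale (SE, edgeR adjusted p = 1.90e-15 and 1.19e-15). The water channel Aqp5 was a lung gene with overlap: it had 85.1, 117 and 201 CPM in lung and 0, 8.45 and 116 CPM in skin, and lung was higher in 10 of 11 mice.

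Lmo7, Col4a3, Col4a4 and Cav1 were the AT1 genes that were not lung genes. Cav1, the coat protein of caveolae, had 679, 866 and 1303 CPM in lung and 1644, 1947 and 2631 CPM in gonadal fat, with every fat library above every lung. The basement membrane collagens Col4a3 and Col4a4 were lower in lung than in kidney by 0.45 ± 0.14 and 0.76 ± 0.12 on the log2 scale (SE, edgeR adjusted p = 0.00974 and 2.59e-05). Their medians were 299 and 197 CPM in lung, against 452 and 326 CPM in kidney. The call of Col4a3 was lost in females alone (-0.19) and with the 2 doubtful libraries kept (-0.71).

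The airway was led by secretory and ciliated cell genes. Scgb1a1, the club cell secretoglobin (mm10 chr19:9083636-9087958, minus strand), had 5618, 11940 and 16060 CPM in the lowest, median and highest lung, against 1.73, 5.06 and 11.2 CPM in skin (log2 fold change 10.99 ± 0.26 SE, edgeR adjusted p = 1.91e-14). Per kilobase of exon it reached 23720 CPM in lung, above Sftpc at 5026, the globin Hbb-bs at 3503, the lysozyme Lyz2 at 3229, the carbonyl reductase Cbr2 at 1587, Sftpb at 1106 and Sftpa1 at 855 CPM per kilobase, which made it the leading protein-coding gene of the lung by that measure. Its sister secretoglobin Scgb3a2 had 160, 371 and 670 CPM in lung, against 0, 1.28 and 5.87 CPM in skin. Cbr2 had 1297, 2106 and 2865 CPM in lung, against 37.2, 128 and 165 CPM in gonadal fat.

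Of 11 club and secretory genes tested 7 were lung genes, with a median smallest log2 fold change of 1.8. Cyp2f2, a P450 that activates naphthalene in mouse club cells, had 517, 1401 and 1652 CPM in lung and 171, 404 and 678 CPM in liver, and lung was higher in 10 of 11 mice (log2 fold change 1.80 ± 0.23 SE, edgeR adjusted p = 1.11e-06). The paralogs of P450 genes can share reads, so their values are less certain. Cyp4b1 was not a lung gene: it had 345, 491 and 573 CPM in lung and 314 to 4785 CPM in kidney, where the spread among mice was wide. Its log2 fold change over kidney was -1.25 ± 0.51 (SE, edgeR adjusted p = 0.0432), a call lost without mouse 37, 45, 55, 61 or 71 (-1.07 to -0.99), and 0.28 in females alone. The aldehyde dehydrogenase Aldh1a7 had medians of 81.7 CPM in lung and 213 CPM in liver, and was lower in lung in 11 of 11 mice.

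Nearly the whole list of cilia genes stood out: 16 of 17 ciliated cell genes tested were lung genes, with a median smallest log2 fold change of 4.44. Foxj1, the master regulator of motile cilia (mm10 chr11:116330704-116335399, minus strand), had 21.5, 67.4 and 88.7 CPM in lung, against 0, 0 and 9.37 CPM in gonadal fat (log2 fold change 6.09 ± 0.49 SE, edgeR adjusted p = 4.40e-08). The axonemal dynein Dnah9 had 50, 129 and 191 CPM in lung, against 0, 1.36 and 34.8 CPM in gonadal fat. Hydin, a protein of the central pair of the axoneme, had 32.7, 150.0 and 178 CPM in lung and up to 40.2 CPM in gonadal fat, so that the highest fat library lay above the lowest lung. The exception was Cfap43, with 60.3, 99.3 and 155 CPM in lung and 53.9, 83.5 and 98.7 CPM in bone marrow (log2 fold change 0.09 ± 0.13 SE, edgeR adjusted p = 0.544). Foxj1, Cdhr3 and Dnah9 of this list were among the 25 lung genes with the largest smallest fold change.

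**Figure D2:**
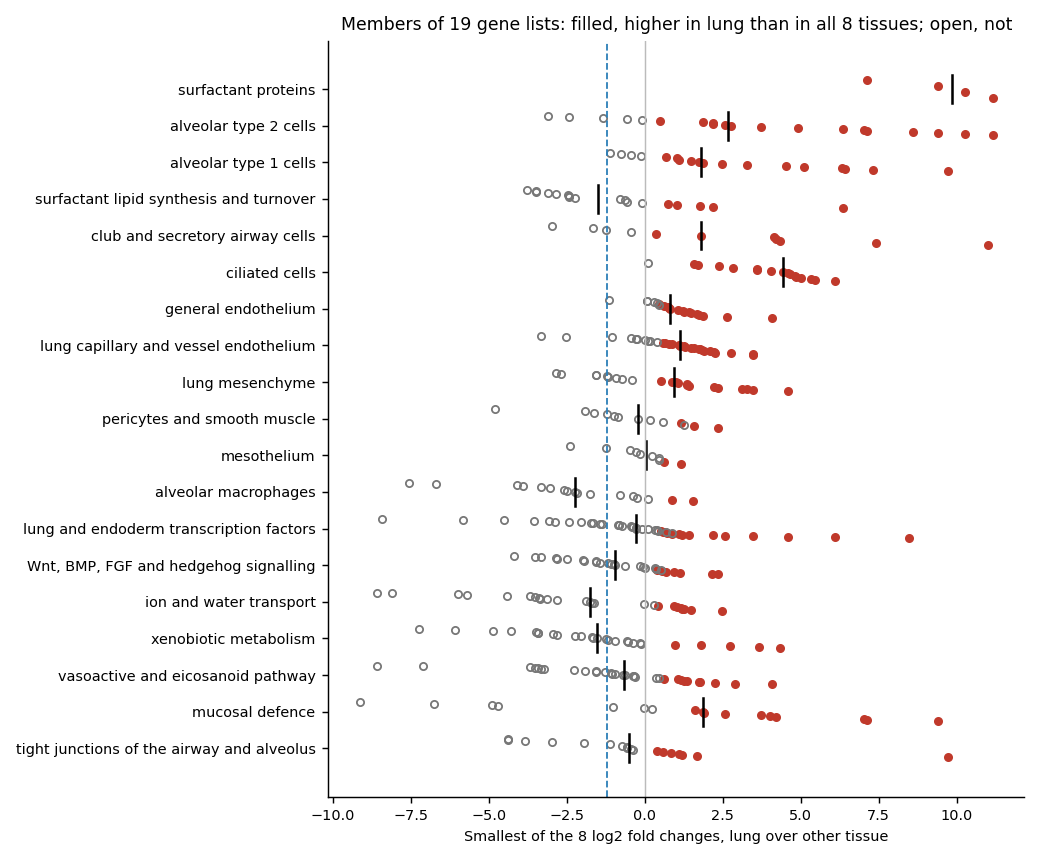
Smallest of the 8 log2 fold changes of lung over another tissue for each tested member of 19 gene lists; filled points are lung genes, open points are not, black bars are medians of a list and the dashed line is the median of all genes tested, -1.2. The medians of the surfactant protein, ciliated and alveolar cell lists lie to the right of 0, and those of the macrophage and transport lists lie to the left of it.

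Genes of mucus and of the larger airways varied between lungs far more than the genes of the distal lung. The mucin Muc5b was a lung gene with 1.24, 58.1 and 678 CPM in lung and 1.73, 4.90 and 10.1 CPM in skin, higher in lung in 9 of 11 mice (log2 fold change 4.19 ± 0.65 SE, edgeR adjusted p = 3.19e-05). Bpifa1, Bpifb1, Scgb3a1 and Reg3g, secreted proteins of airway and gland epithelium chosen after their values were seen, did not pass the filter on low counts and were not tested between tissues. That filter asks for enough counts in a minimum number of libraries. A gene low in several lungs and in the other tissues can fail it despite high values in the remaining lungs. Bpifa1 ran from 0 to 899 CPM over the 11 lungs with a median of 70.7, Bpifb1 from 0.656 to 393 with a median of 15.1, and Scgb3a1 from 0.827 to 315 with a median of 27. Reg3g, an antibacterial lectin, ran from 0 to 79.5 CPM with a median of 5.56. The 4 lowest lungs were those of mice 3, 18, 20 and 37 for each of these 5 genes, and the 2 highest were those of mice 11 and 22. In the other 7 lungs the lowest values were 10.8 CPM of Bpifa1, 4.43 of Bpifb1, 12.8 of Scgb3a1, 48.7 of Muc5b and 0.985 of Reg3g. No library of another tissue exceeded 2.74 CPM of Bpifa1 or 4.8 CPM of Scgb3a1. In the 10 anti-PAPP-A lungs Bpifa1 was at 0 in 5 and at 3793 CPM in the highest. The medians were 0.277 CPM of Bpifa1, 3.65 of Bpifb1, 3.46 of Scgb3a1 and 29.1 of Muc5b in anti-PAPP-A lungs, against 70.7, 15.1, 27 and 58.1 CPM in control lungs. The fitted log2 fold changes of anti-PAPP-A over control lungs had the opposite sign to these medians, from 0.24 for Muc5b to 1.11 for Bpifa1, and none of the 4 passed (edgeR adjusted p = 0.921 to 0.993). Krt5, a keratin of basal cells, stayed between 0 and 1.34 CPM in lung. How much of the large airway each piece of lung held is not given in the labels, and its part in these values was not tested.

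**Figure D3:**
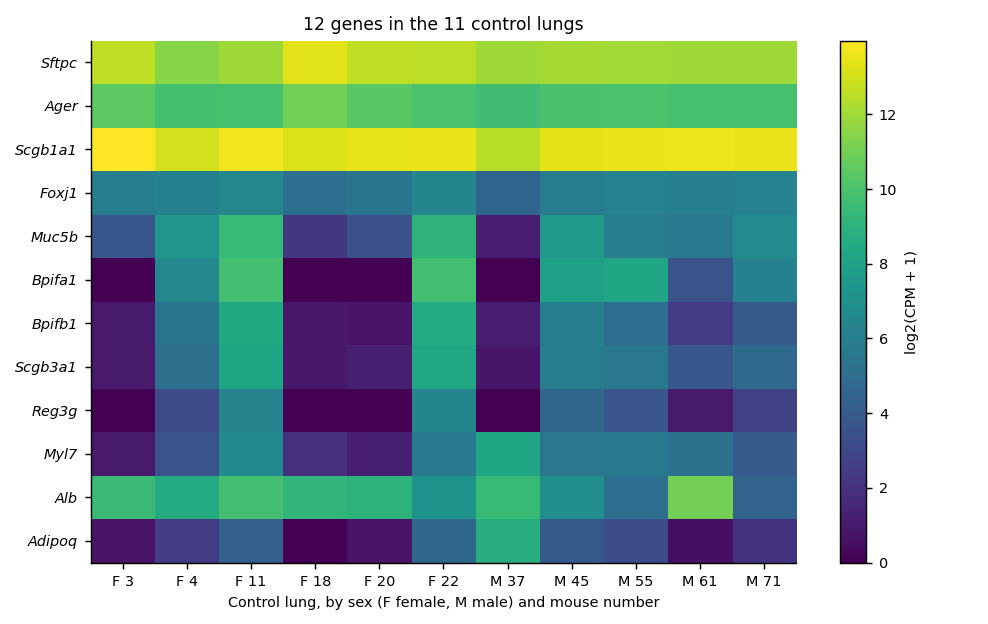
Airway and alveolar genes in each of the 11 control lungs (colour is log2 of CPM + 1, with 1 row per gene and 1 column per mouse). Bpifa1, Bpifb1, Scgb3a1, Muc5b and Reg3g are low together in mice 3, 18, 20 and 37, whereas Scgb1a1, Foxj1 and Sftpc are present in every lung.

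Mucosal defence as a whole held 10 lung genes among 17 tested, with a median smallest log2 fold change of 1.88. Most of these were counted above. Sftpa1, Sftpd, Cxcl15, Chil1, Muc1 and Lyz1 are also on the AT2 list, and Muc5b is on the club and secretory list. The membrane mucins Muc4 and Muc1 exceeded subscapular fat and kidney by 4.01 ± 0.48 and 3.73 ± 0.19 on the log2 scale (SE, edgeR adjusted p = 1.30e-05 and 4.29e-11). Muc1 had 51.3, 90.5 and 158 CPM in lung, against 2.53, 7.65 and 15.7 CPM in kidney, with no overlap. Muc4 had 7.44, 39.4 and 126 CPM in lung and up to 18 CPM in subscapular fat, so that their ranges overlapped.

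Among 43 lung and endoderm transcription factors 14 were lung genes, and the median smallest log2 fold change of the list was -0.27. Nkx2-1 (mm10 chr12:56531958-56536908, minus strand), the founding factor of lung epithelium, had 28.1, 50.5 and 73.9 CPM in lung and no count in any heart, liver, spleen, bone marrow, gonadal fat or skin library. Against the level of 3 counts over the group it was at least 310-fold higher in lung than in bone marrow. The 11 kidney and the 11 subscapular fat libraries held 1 count each of Nkx2-1, and it passed the test against both. Tbx4 (mm10 chr11:85886422-85916097, plus strand), a factor of lung and hindlimb mesenchyme, had 26.0, 46.7 and 54.2 CPM in lung, against 0, 1.27 and 3.43 CPM in skin (log2 fold change 4.6 ± 0.28 SE, edgeR adjusted p = 5.51e-10). Foxf1 had 41.3, 66.5 and 105 CPM in lung, against 0, 5.87 and 13.8 CPM in liver, and Etv5, which maintains AT2 cells, had 119, 138 and 232 CPM in lung, against 21.7, 32.7 and 43.7 CPM in kidney. Several factors known from lung development were not lung genes. Foxa2, a forkhead factor of lung and liver, had 15.7, 25.7 and 38.7 CPM in lung and 21.1, 32.4 and 55.1 CPM in liver (log2 fold change -0.37 ± 0.14 SE, edgeR adjusted p = 0.0248). That call was lost without mouse 11 (-0.29) or mouse 37 (-0.31). It was also lost in females alone (-0.43), in males alone (-0.35) and with no filter on low counts (-0.29). Gata6 was lower in lung than in heart in 10 of 10 mice, with medians of 31.4 CPM in lung and 57.8 CPM in heart. Sox9, a factor of the embryonic lung tips, reached 4.59 CPM at most in lung, against 30.4 CPM at the median of skin.

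Most endothelial genes were higher in lung than in every other tissue. Of 21 general endothelial genes 15 were lung genes, with a median smallest log2 fold change of 0.82, and of 30 genes of lung capillaries and vessels 20 were, with a median of 1.11. Calcrl, the receptor for adrenomedullin and calcitonin gene-related peptide (mm10 chr2:84330626-84425411, minus strand), had 691, 1161 and 1538 CPM in lung, against 35.7, 69.8 and 94.6 CPM in heart (log2 fold change 4.09 ± 0.19 SE, edgeR adjusted p = 1.71e-10). Its partner Ramp2 had 43.2, 91.4 and 133 CPM in lung, against 16.8, 23.2 and 38.5 CPM in heart. Neither gene overlapped heart. Pecam1, the adhesion molecule common to all endothelium, had 272, 463 and 573 CPM in lung and 182, 246 and 317 CPM in heart, and was higher in lung in 9 of 10 mice (log2 fold change 0.79 ± 0.14 SE, edgeR adjusted p = 0.000201).

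Other endothelial genes did not pass against their closest tissue or were lower in lung. Kdr, the main VEGF receptor, had 212, 388 and 449 CPM in lung and 210.0, 373 and 477 CPM in heart (log2 fold change 0.07 ± 0.12 SE, edgeR adjusted p = 0.649). Flt1, a decoy VEGF receptor, was 0.30 ± 0.14 above heart on the log2 scale (SE, edgeR adjusted p = 0.086), and passed without mouse 18 (0.38) or mouse 20 (0.36). Emcn, a sialomucin of veins and capillaries, was lower in lung than in kidney in 11 of 11 mice, with medians of 39.7 CPM in lung and 76.1 CPM in kidney. Its log2 fold change was -1.16 ± 0.16 (SE, edgeR adjusted p = 8.42e-06).

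Lung capillary genes with the widest margins were Foxf1, Tmem100 and Prx. Tmem100, a BMP-dependent membrane protein, had 134, 207 and 246 CPM in lung, against 5.41, 16.0 and 50.2 CPM in heart. Ace, the angiotensin converting enzyme of capillary endothelium (mm10 chr11:105967945-105989964, plus strand), had 373, 659 and 811 CPM in lung, against 29.6, 152 and 275 CPM in kidney, and was higher in lung in 11 of 11 mice (log2 fold change 2.24 ± 0.27 SE, edgeR adjusted p = 1.60e-06). Genes of pulmonary hypertension in humans were among the list, and the BMP receptors Acvrl1 and Bmpr2 exceeded gonadal fat and skin by 2.22 ± 0.14 and 1.82 ± 0.13 on the log2 scale (SE, edgeR adjusted p = 3.61e-09 and 3.06e-09). Epas1, a hypoxia-inducible factor, had 866, 1734 and 2501 CPM in lung, against 113, 446 and 768 CPM in subscapular fat. Car4, often used to mark a capillary type of the lung, was not a lung gene, with 19, 37.6 and 49.8 CPM in lung and 24.0, 40.9 and 93.9 CPM in kidney. Npr3, a clearance receptor, had medians of 108 CPM in lung and 1318 CPM in gonadal fat.

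Vasoactive and eicosanoid genes followed, with 10 lung genes among 32 tested and a median smallest log2 fold change of -0.67. Pde5a, the phosphodiesterase that breaks down cyclic GMP, had 158, 251 and 302 CPM in lung, against 18.7, 29.2 and 40.5 CPM in bone marrow (log2 fold change 2.90 ± 0.13 SE, edgeR adjusted p = 8.20e-13). Edn1, the precursor of endothelin, had 18.5, 24.5 and 45.3 CPM in lung, against 3.12, 6.99 and 13.7 CPM in heart. The prostaglandin transporter Slco2a1 exceeded spleen by 1.34 ± 0.12 (SE, edgeR adjusted p = 1.95e-08), and Hpgd, which inactivates prostaglandins after uptake, exceeded liver by 1.25 ± 0.14 (SE, edgeR adjusted p = 2.27e-07), both on the log2 scale.

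In the mesenchyme 13 of 22 genes tested were lung genes, with a median smallest log2 fold change of 0.94. Itga8, an integrin of alveolar fibroblasts, had 281, 373 and 494 CPM in lung, against 29.6, 43.5 and 57.1 CPM in kidney (log2 fold change 3.10 ± 0.10 SE, edgeR adjusted p = 2.20e-13). The elastic fibre protein Mfap4 had 53.5, 117 and 158 CPM in lung, against 5.34, 9.51 and 30.5 CPM in heart. Hhip, the hedgehog antagonist, exceeded liver by 2.34 ± 0.17 and Col13a1, a transmembrane collagen of alveolar fibroblasts, exceeded it by 2.23 ± 0.29 on the log2 scale (SE, edgeR adjusted p = 3.51e-10 and 1.60e-06). Fgf10, the growth factor of lung budding, was lower in lung than in gonadal fat in 11 of 11 mice, with medians of 13.5 CPM in lung and 38 CPM in gonadal fat. Pericyte and smooth muscle genes gave 3 lung genes among 13 tested, namely Hhip, Trpc6 and Gucy1b3, and a median of -0.23. Acta2, smooth muscle actin, was lower in lung than in heart in 10 of 10 mice, with medians of 98.1 CPM in lung and 165 CPM in heart. Mesothelial genes gave 2 of 10, Krt19 and Gpm6a, and neither was a lung gene again in the anti-PAPP-A mice. The call of Gpm6a against kidney was lost without mouse 3, 11, 18, 20, 22, 37, 45 or 61, with log2 fold changes of 0.41 to 0.63. It was also lost in males alone (0.45) and with the abundant features kept (0.56).

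Signalling genes of the Wnt, BMP, FGF and hedgehog pathways held 7 lung genes among 29 tested, with a median of -0.96. Fgf7 and Bmp5 exceeded gonadal fat and liver by 1.12 ± 0.21 and 0.93 ± 0.13 on the log2 scale (SE, edgeR adjusted p = 0.000327 and 4.42e-06).

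Transport genes gave 8 lung genes among 25, with a median of -1.74. They included all 3 subunits of the epithelial sodium channel, which draws fluid out of the airspaces and is also the sodium channel of the kidney collecting duct. Scnn1g had 99.2, 131 and 232 CPM in lung, against 27.3, 51.1 and 68.5 CPM in kidney, without overlap. Scnn1a had 139, 204 and 268 CPM in lung and 36.6, 93.3 and 177 CPM in kidney, and Scnn1b had 71.1, 107 and 127 CPM in lung and 26.8, 52.4 and 80.2 CPM in kidney, both higher in lung in 11 of 11 mice with ranges that overlapped. Their log2 fold changes over kidney were 1.47 ± 0.16 for Scnn1g, 1.27 ± 0.18 for Scnn1a and 1.03 ± 0.14 for Scnn1b (SE, edgeR adjusted p = 4.22e-07, 1.10e-05 and 7.89e-06). Tight junction genes gave 7 of 18 besides, led by Cldn18, the endothelial claudin Cldn5 and the scaffold Tjp1.

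Xenobiotic metabolism gave 5 lung genes among 27 tested, with a median of -1.53: Cbr2, Cyp2b10, Cyp2s1, Cyp2f2 and Fmo2. Cyp2b10 had 194, 280.0 and 503 CPM in lung, against 7.81, 24.9 and 50.7 CPM in skin (log2 fold change 3.66 ± 0.27 SE, edgeR adjusted p = 6.12e-09). Fmo2, a flavin monooxygenase, had 682, 929 and 1749 CPM in lung, against 284, 492 and 580 CPM in kidney.

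Alveolar macrophages are the resident phagocytes of the airspaces. Of 17 of their genes 2 (11.8%, against 4.45% of all genes tested) were lung genes, Plet1 and Ear2, and the median smallest log2 fold change was -2.25. In each single comparison most were higher in lung, with 9 of 17 against liver and 15 of 17 against skin at the extremes. Of all genes tested 37.7% were higher in lung than in liver and 34.3% than in skin. Of the 17, 4 were lower in lung than in bone marrow and 4 were lower than in gonadal fat, the most of any comparison. Car4 of this list is also on the list of lung capillary genes. Plet1 had 24.8, 50.9 and 82.6 CPM in lung, against 5.07, 13.4 and 27.9 CPM in skin (log2 fold change 1.53 ± 0.17 SE, edgeR adjusted p = 7.61e-07). Marco, a scavenger receptor, had 0.767, 5.56 and 18.8 CPM in lung, against 14.4, 61.9 and 102 CPM in spleen, and was lower in lung in 11 of 11 mice (log2 fold change -3.33 ± 0.32 SE, edgeR adjusted p = 7.43e-08). Siglecf had 6.13, 9.54 and 26.3 CPM in lung and 5.01, 9.04 and 13.5 CPM in bone marrow, and did not pass against it.

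Cardiac muscle genes in lung depended on the mouse. The walls of the mouse pulmonary veins hold heart muscle of an atrial kind, and none of the 16 tested genes of the list was a lung gene. Myl7, the atrial myosin light chain (mm10 chr11:5896637-5898782, minus strand), had 1.01, 37.9 and 293 CPM in the lowest, median and highest lung. The hearts of the same mice split: 3 of 10 had over 1000 CPM of Myl7, up to 3090, and 6 had under 5 CPM. Myl7 was higher in lung than in heart in 5 of 10 mice, the log2 fold change of lung over heart was -0.27 ± 2.01 (SE, edgeR adjusted p = 0.926), and Myl4 and Sln, also atrial genes, were likewise higher in lung in 5 of 10, and Nppa, the atrial natriuretic peptide, in 2 of 10. Myl2, the ventricular light chain, was at 0.656 to 3.34 CPM in these lungs, against 2032 to 9190 CPM in the hearts, and like Myl3, Myh6, Tnnt2, Actc1 and Pln it was higher in lung in 0 of 10. Mouse 37 had the highest Myl7 in lung at 293 CPM, and 2.72 CPM in its heart. Mouse 3 had the lowest in lung at 1.01 CPM, and 3090 CPM in its heart. Not every mouse had Myl7 in only one of these tissues. Mouse 45 had 44.9 CPM in lung and 2677 CPM in heart, and mouse 20 had 1.31 and 1.37 CPM. Without the mouse as a block the log2 fold change of Myl7 was -3.88 and passed the threshold. That fit had sex as a term and also took in the lung of mouse 22 and the heart of mouse 68.

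**Figure D4:**
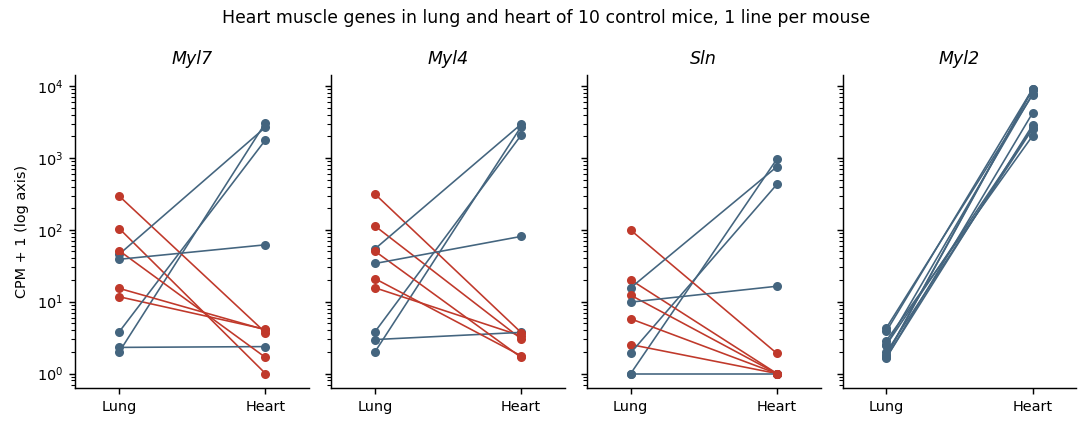
Atrial and ventricular muscle genes in lung and in heart of the same 10 control mice (CPM + 1, log axis); lines join the libraries of 1 mouse and are red where lung is higher. Myl7 is higher in lung in 5 of the 10 mice, and its lines cross, whereas Myl2 is lower in lung in all 10.

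Genes of other tissues were also present in lung at levels that differed between mice. Hepatocyte genes summed to 38.1 to 3234 CPM over the 11 lungs with a median of 671, led by albumin (Alb) at 20.7 to 2112 CPM. Fat cell genes summed to 202 to 4430 CPM with a median of 245, and mouse 37 was the highest. Mesothelial genes summed to 449 to 2418 CPM with a median of 630, and mouse 18 was the highest. None of the 8 hepatocyte, 12 adipocyte, 7 kidney tubule, 7 keratinocyte or 6 B cell genes tested was a lung gene, where 4.45% of all genes tested were. The tissues rich in these cells are among the 8 compared, so that count follows from the definition and does not measure such material. The part of such material in the comparisons was not tested beyond leaving out each mouse in turn, which gave 721 to 781 lung genes.

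The 46 genes lower in lung than in all 8 tissues included Slc40a1, Tbrg4 and Sbk1. Slc40a1 is ferroportin, the iron exporter of macrophages and hepatocytes. It had 6.13, 9.58 and 16.7 CPM in lung, against 50.4, 305 and 442 CPM in spleen, and its log2 fold changes ran from -4.70 against spleen to -1.70 against gonadal fat. Tbrg4 had 8.43, 11.1 and 13.6 CPM in lung, against 27.4, 58.7 and 69.8 CPM in heart, where the difference was widest, and was lower in lung than in each other tissue in every mouse. The number of such genes was 23 with DESeq2 and 26 with another scaling, and 28 to 40 when 1 mouse was left out.

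None of the 17 tested genes of the PAPP-A and IGF axis was a lung gene, where 4.45% of all genes tested were, and the median smallest log2 fold change was -2.04. Pappa had 2, 7.44 and 12.4 CPM in lung, against 7.17, 24.6 and 54.0 CPM in kidney, and was lower in lung in 10 of 11 mice (log2 fold change -1.70 ± 0.21 SE, edgeR adjusted p = 3.24e-06). Igfbp5, an IGF binding protein cleaved by PAPP-A, had 198, 273 and 914 CPM in lung and 310.0, 469 and 639 CPM in kidney (log2 fold change -0.53 ± 0.23 SE, edgeR adjusted p = 0.0555). It was called lower in lung without mouse 18 (-0.71) or mouse 37 (-0.65), whose lungs had the highest values. The call was also made in males alone (-0.84), with the abundant features kept (-0.57) and with DESeq2 (-0.53).

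The same comparison was made in the anti-PAPP-A mice, animals whose libraries were not used to choose the lung genes. In those 10 mice 707 genes (4.1% of those tested) were higher in lung than in all 8 tissues, and 630 of them were among the 767, which is 82.1% of the control list and 89.1% of the anti-PAPP-A list. The smallest log2 fold change was positive for 763 of the 767. Of lung genes with a smallest log2 fold change of at least 2 in control mice 166 of 166 passed again, of those with at least 1 383 of 394 (97.2%), and of those under 1 247 of 373 (66.2%). Leaving out 3 anti-PAPP-A libraries in doubt, the heart of mouse 56, the gonadal fat of mouse 58 and the skin of mouse 36, gave 707 lung genes, of which 633 were shared.

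**Figure D5:**
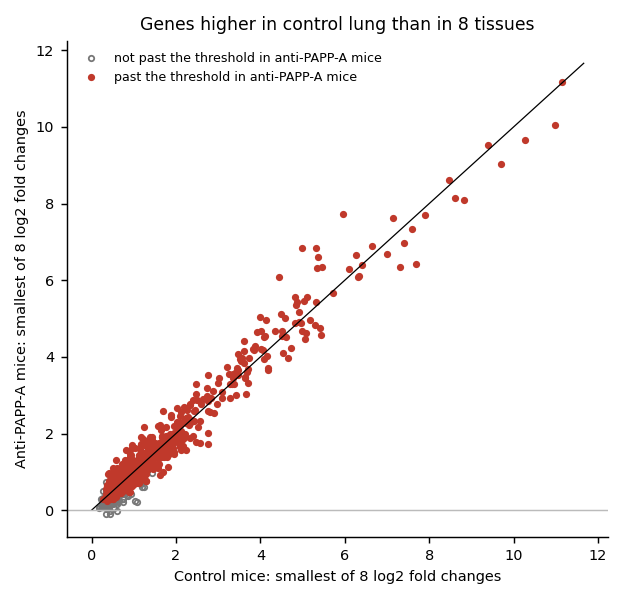
Smallest of the 8 log2 fold changes of each of the 767 lung genes in anti-PAPP-A mice (vertical axis) against that in control mice (horizontal axis); the line marks equal values and open circles did not pass the threshold in anti-PAPP-A mice. Open circles lie among the genes with small fold changes in control mice.

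Between anti-PAPP-A and control lungs 0 of 12394 genes (0%) passed in either direction with edgeR, and 689 had an unadjusted p under 0.05. Each of DESeq2 and limma-voom also gave 0 calls, with 650 and 760 genes at that unadjusted level. Among lung genes 10 were higher and 9 lower at an unadjusted p under 0.05, which is 2.48% of them, against 5.56% of all genes tested. All 6 tested hepatocyte genes were lower in anti-PAPP-A lungs at that level (median log2 fold change -1.95), and none passed. Alb averaged 145 ± 168 CPM in anti-PAPP-A lungs and 570 ± 595 CPM in control lungs (SD, n = 10 and 11, edgeR adjusted p = 0.85). Sftpc averaged 4170.0 ± 1519 CPM in anti-PAPP-A lungs and 5197 ± 2085 CPM in control lungs (SD, n = 10 and 11), and the log2 difference was -0.24 ± 0.22 (SE, edgeR adjusted p = 0.901). Foxj1 averaged 78.4 ± 41.2 CPM in anti-PAPP-A lungs and 60.6 ± 20.7 CPM in control lungs (log2 fold change 0.41 ± 0.24 SE, edgeR adjusted p = 0.883). The count outside the abundant features was 424611 to 1725954 in anti-PAPP-A lungs, against 1008482 to 2744857 in control lungs, which limits the precision of these values.

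Between female and male control lungs edgeR called 2 genes higher in females (0.0153% of 13101) and 4 lower (0.0305%), and no lung gene was among them. These 6, named after their values were seen, are the X-linked Xist and Kdm6a and the Y-linked Kdm5d, Uty, Ddx3y and Eif2s3y. DESeq2 called 25 genes, 4 of them lung genes that edgeR did not call: Scnn1a, Spock2 and the feature named AKAP5_MOUSE were higher in females and C7 was lower (DESeq2 adjusted p = 0.0192, 0.00537, 2.79e-05 and 0.00356; edgeR adjusted p = 0.446, 0.332, 0.132 and 0.295). At an unadjusted p under 0.05, 71 lung genes were higher in females and 9 were lower, 10.4% of lung genes against 5.45% of all genes tested. Sftpb averaged 2551 ± 486 CPM in female lungs and 1728 ± 200 CPM in male lungs (SD, n = 6 and 5), and the difference of 0.55 ± 0.15 on the log2 scale did not pass (SE, edgeR adjusted p = 0.692). Of the 20 AT2 genes 10 were higher in females at an unadjusted p under 0.05, and the median log2 fold change of the list was 0.49. In the same comparison 4 of 7 adipocyte genes (median -2.58) and 4 of 5 erythroid genes (median -0.87) were lower in females at that level, and 2 of 12 genes of pulmonary vein heart muscle were (median -1.31). Their part in the difference of the AT2 genes was not tested. The highest surfactant sum, 19237 CPM, was that of the female mouse 18.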

How the data were processed

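RNA of whole tissues was prepared with a stranded total RNA kit, per the labels' protocols, from 22 mice and 9 tissues. The submitters' processing notes name FastQC 0.11.5, Salmon and the build mm10. Counts of 56332 genes are whole numbers as deposited. Salmon's own estimates need not be whole, and the step between, like the annotation and strand setting, is not given in the sources used here.

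Lung and each other tissue were compared on those counts by edgeR's quasi-likelihood F-test (version 4.0.16, R 4.3.3), with TMM scaling and with mouse and tissue as terms. The 17229 genes that passed filterByExpr over tissues were tested, with Benjamini-Hochberg adjustment over them. A positive log2 fold change means higher in lung. The SE given with it is its absolute value divided by the square root of the F statistic, since the test reports no SE. The 9 features that averaged 0.9% of counts or more, among them mt-Rnr1, mt-Rnr2, Rn7s1, Gm42418 and Lars2, were left out of library sizes and tests, because they held 54.12% to 90.42% of the counts in a control lung. Reads of paralogs and of overlapping genes can be split between them. Anti-PAPP-A and control lungs were compared with sex as a covariate. All tests were two-sided. Between tissues the p-values measure how the difference of lung and tissue within a mouse varied over mice. Between groups of lungs they measure the spread between mice. The fit was first tested on simulated counts in which chosen genes differed by set amounts. Far fewer genes were changed there than were called between lung and heart, and all genes were given the same dispersion. It therefore does not test scaling or false calls under the conditions of these data.

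Groups, sexes and mice are from the labels. The same number marks the same animal, which pairs the tissues. Over 11124 genes the deviations of a lung from the group mean correlated with those of another tissue of the same mouse at a median of 0.013 to 0.103 over the 8 tissues, and at -0.014 to 0.004 with those of other mice.

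The members and the 36 gene lists were chosen with earlier results of these data known. Lists share members, among them Cldn18, Foxj1, Foxf1, Cbr2, Cyp2f2 and Hhip, so the counts of different lists are not independent of each other. Genes named are the 25 lung genes with the largest smallest log2 fold change, at least 10 CPM in lung and a symbol, up to 6 leading and 3 other members of a list, 14 genes fixed by name, up to 6 genes lowest in lung, and up to 5 per direction by treatment or sex. Exceptions are stated, and a few genes that these rules name are not reported here.

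Alternatives were DESeq2 1.42.0, limma-voom (limma 3.58.1), RLE scaling, no filter on low counts, no replicate block, 1 fit over all tissues, abundant features kept, the 2 libraries kept, each sex alone and each mouse left out. Leaving out each mouse from the comparison of anti-PAPP-A with control lungs was added after seeing the data. Positions are on mm10. Figures were drawn with matplotlib 3.10.9, from tables made with pandas 2.3.3 and numpy 2.4.6 under Python 3.11.15.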

Additional observations from a re-analysis of the deposited data

Results flagged for a closer look

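In 8 cases 1 lung lay far from the others of its group by a gap test on the range, which chance does in about 1 in 20 groups. Several genes were searched in each group, and how many is not given here. The 8 cases, some of them from the same lung, therefore cannot be set against that rate. Among the 6 female control lungs, mouse 18 had the lowest Pecam1, at 272 CPM with the next at 463, the lowest Tbx4, at 27.2 CPM with the next at 43.6, and the highest Igfbp5, at 734 CPM with the next at 427. Its mesothelial genes summed to 2418 CPM, the highest of the 11 control lungs. Among the 5 male control lungs, mouse 37 had the lowest Scgb1a1, at 5618 CPM with the next at 10994, the lowest Foxj1, at 21.5 CPM with the next at 59.5, and the highest Igfbp5, at 914 CPM with the next at 303. Its fat cell genes summed to 4430 CPM and its cardiac muscle genes to 6990 CPM, each the highest of the 11. Mouse 45 had the highest Marco among males, at 14.1 CPM with the next at 5.56. Among the 10 anti-PAPP-A lungs, mouse 9 had the highest Nkx2-1, at 84.1 CPM with the next at 62.1, and the lowest depth of those lungs, with 424611 counts outside the abundant features.

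The library labelled lung of control mouse 68 entered only the alternatives that kept it. It held 13046 summed CPM of fat cell genes, above the 4430 CPM of the highest lung used in the main comparisons.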

How the results depend on the processing

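The 767 lung genes became 803 with DESeq2, 771 with limma-voom, 812 with RLE scaling, 743 in 1 fit over all tissues, 790 with the abundant features kept, 639 in females alone and 558 in males alone, with 753, 753, 767, 708, 731, 606 and 543 of the 767 among them. They were 1197 with no low count filter (743 shared), 394, 166 and 101 at a smallest log2 fold change of at least 1, 2 and 3, and 721 to 781 without 1 mouse. With no replicate block, and sex as a term in place of the pairing by mouse, there were 789 (746 shared). That setting also took in libraries without a partner from the same mouse.

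The 46 genes lower in lung than in all 8 became 23 with DESeq2, 26 with RLE scaling, 16 with no filter, 12 in females, 8 in males and 28 to 40 without 1 mouse. Genes lower in lung than in subscapular fat were 1636 in females alone, against 3482. With no filter 1 gene was higher in anti-PAPP-A lungs, and 5 in female lungs. DESeq2 called 16 genes higher and 9 lower in female lungs, and without 1 mouse 1 to 4 were higher. The log2 fold change of lung reversed in females alone for Cckar (0.67) and Cyp4b1 (0.28) over kidney, and in males alone for Selenbp1 over kidney (-0.10) and Bmp3 over gonadal fat (0.44). The cause was not tested. Of 474 values of named genes, 391 kept direction and side of the threshold under all 21 alternatives. RLE scaling moved the median of all genes by up to 0.13. Depth outside the abundant features, and not the total, limits genes of low level.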
